A study of Mus musculus with 13 samples.

Results

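Of the open chromatin peaks called in 20000 mouse E14 embryonic stem cells by a low-input protocol, 583 lay where Omni-ATAC of 50000 cells had no peak. They were chosen by 2 measured values in the list of experiment 2: a width of at least 50 bp, and no base shared with any Omni-ATAC 50000-cell peak. They made up 2.29% of the 25466 peaks of that width in the list, and are called Omni-absent peaks here. The remaining 24883 peaks, which share at least 1 bp with an Omni-ATAC 50000-cell peak, are the other peaks. The 8 ATAC lists of the series hold 279669 intervals in all. Absence from the Omni-ATAC 50000-cell list chose the regions and is not a result.

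E14 is a single embryonic stem cell line of 129/Ola background, kept in serum with leukemia inhibitory factor, and no group carried a genetic change or a drug. In the low-input protocol, cells were opened with a mild detergent and cut with the transposase Tn5, and mRNA was then taken from the same lysate on oligo-dT beads. It was run on 10000 and 20000 cells in experiment 1 and on 5000, 10000 and 20000 cells in experiment 2, on separate days, so that there are 5 mRNA libraries and as many low-input ATAC libraries. The benchmark protocol, Omni-ATAC, was run once each on 5000, 10000 and 50000 cells. Protocol and cell number differ together between the list that supplied the regions and the Omni-ATAC 50000-cell list. The labels also give the Omni-ATAC libraries no experiment, so whether their cells match those of experiment 2 is unknown. The parts of protocol, cell number and experiment cannot be told apart, and the read depth of either list is unknown.

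Tn5 inserts adapters where DNA is not wrapped in nucleosomes, so ATAC peaks mark promoters, enhancers and other open sites. Promoters of active genes give wide and strong peaks in most cell types, while enhancers lie between genes or inside introns and differ more from one cell state to another.

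RefSeq promoter windows, which run from 250 bases before to 50 bases after a transcription start site (TSS) in GRCm38.p6, were overlapped by an Omni-absent peak in 17 cases, and in 12 of them the peak ended before the RefSeq TSS. None of the 17 (0) was also overlapped by one of the other peaks of the list, so in each the Omni-absent peak is the only peak of at least 50 bp. The 250 bases before the TSS are shown for 5 windows that hold their peak whole: the 4 widest such peaks, and Gm10858, whose peak, like that of Spata31d1b, was found again in 20000 cells of experiment 1. Capitals mark the bases inside the peak, and each is read 5′ to 3′ on the strand of the gene. The stretches are chr8:84011721-84011970 on the minus strand for Misp3, chr13:59712034-59712283 on the plus strand for Spata31d1b, chr6:125067670-125067919 on the plus strand for Lpar5, which encodes a receptor for lysophosphatidic acid, chr9:107338351-107338600 on the minus strand for Hemk1, and chr5:146897098-146897347 on the minus strand for Gm10858.
Misp3: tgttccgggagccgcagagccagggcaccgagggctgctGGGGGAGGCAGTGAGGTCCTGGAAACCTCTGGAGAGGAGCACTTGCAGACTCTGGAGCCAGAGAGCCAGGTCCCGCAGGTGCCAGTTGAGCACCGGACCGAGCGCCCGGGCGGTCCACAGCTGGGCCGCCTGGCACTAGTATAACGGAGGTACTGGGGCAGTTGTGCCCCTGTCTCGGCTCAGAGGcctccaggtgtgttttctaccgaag
Spata31d1b: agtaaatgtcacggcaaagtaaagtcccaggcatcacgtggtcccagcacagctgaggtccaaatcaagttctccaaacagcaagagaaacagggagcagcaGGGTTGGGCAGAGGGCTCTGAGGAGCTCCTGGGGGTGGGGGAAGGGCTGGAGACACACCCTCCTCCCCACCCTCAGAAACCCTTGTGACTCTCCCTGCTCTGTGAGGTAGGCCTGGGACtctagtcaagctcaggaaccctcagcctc
Lpar5: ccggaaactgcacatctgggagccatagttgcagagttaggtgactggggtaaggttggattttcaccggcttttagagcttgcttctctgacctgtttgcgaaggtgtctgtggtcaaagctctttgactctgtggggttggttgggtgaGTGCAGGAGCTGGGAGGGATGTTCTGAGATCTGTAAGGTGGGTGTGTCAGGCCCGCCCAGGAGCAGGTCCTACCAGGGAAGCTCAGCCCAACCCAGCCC
Hemk1: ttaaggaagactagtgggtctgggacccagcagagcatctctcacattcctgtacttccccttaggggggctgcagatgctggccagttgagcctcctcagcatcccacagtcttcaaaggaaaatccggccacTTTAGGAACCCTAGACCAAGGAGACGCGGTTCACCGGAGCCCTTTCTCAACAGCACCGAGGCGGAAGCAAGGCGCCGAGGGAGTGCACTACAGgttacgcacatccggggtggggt
Gm10858: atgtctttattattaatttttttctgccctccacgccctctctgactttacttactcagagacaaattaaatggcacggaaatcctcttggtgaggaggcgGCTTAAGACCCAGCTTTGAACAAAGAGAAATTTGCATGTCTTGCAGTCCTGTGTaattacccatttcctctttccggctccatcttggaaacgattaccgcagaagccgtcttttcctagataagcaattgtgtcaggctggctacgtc

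These peaks stood close to the start sites: the Misp3 peak covered bases 211 to 26 before the TSS, that of Spata31d1b 148 to 30, that of Lpar5 99 to 1, that of Hemk1 116 to 24 and that of Gm10858 149 to 96. All motifs were searched on both strands. The GC-box letters GGGCGG occurred inside the Misp3 and Lpar5 peaks, and the octamer ATGCAAAT inside the Gm10858 peak. Over the 17 windows the median GC content was 57.3% and the median number of CpG dinucleotides 7. All 32851 windows had medians of 52.7% and 7, and the 8459 windows overlapped by one of the other peaks had medians of 62.0% and 22. GGGCGG was present in 5 of the 17 windows (29.4%), against 35.7% of all windows and 71.0% of those with one of the other peaks. CCAAT was present in 2 (11.8%, against 37.4% of all windows and 45.9% of those with one of the other peaks), and the ETS-type letters CCGGAAG in 0 (against 8.86% and 21.1%). GCGCATGCG and TGACGTCA, the letters bound by NRF1 and CREB, were in 0 of the 17 (against 1.75% and 1.79% of all windows, and 4.36% and 3.56% of those with one of the other peaks), ATGCAAAT in 1 (5.88%, against 1.74% and 1.64%), and AGGGGGCGC, part of the CTCF motif, in 2 (11.8%, against 1.25% of all windows and 2.68% of those with one of the other peaks). Both of these matches, at Kcnmb4 and Ppp1r9b, lay outside the Omni-absent peak. None of these motifs contains another. By CpG number and GC boxes the 17 windows stood nearer to all windows than to those with one of the other peaks, as a description of 17 sequences.

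The Omni-absent peaks were narrow. Their median width was 108 bp and their widest 628 bp, against a median of 175 bp for the other peaks. Of the 583, 256 were under 100 bp wide, 251 were from 100 to under 200 bp and 76 were 200 bp or more. The nearest Omni-ATAC 50000-cell peak was a median of 1985 bp away. It lay within 100 bp of 82 Omni-absent peaks and within 1000 bp of 215 (36.9%), and over 10000 bp from 125 (21.4%). The regions thus range from the edges of Omni-ATAC peaks to places far from any. At the edges of the rule, 42 of the 574 peaks of 50 to 59 bp were Omni-absent, while 37 of the 605 peaks of 40 to 49 bp, just too narrow for the rule, also had no Omni-ATAC 50000-cell peak. On the side of the overlap, 12 Omni-absent peaks lay 1 to 10 bp from an Omni-ATAC 50000-cell peak, and 490 other peaks shared only 1 to 10 bp with one.

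Chromosome 8 held more of the Omni-absent peaks than any other chromosome. It carried 76 of the 583 (13.04%, 95% Wilson interval 10.5% to 16.0%), against 6.93% of the other peaks and 5.16% of the Omni-ATAC 50000-cell peaks of at least 50 bp. Intervals over peaks cover counting error only, and peaks of 1 library are not replicates. Put the other way, 4.22% of the list's peaks on chromosome 8 were Omni-absent, against 2.29% over all chromosomes. The 76 peaks did not come from 1 site: they formed 74 loci when peaks within 10000 bp were joined, and fell in 11 bins of 10 Mb, with at most 13 in a bin, between 80 and 90 Mb. In each width class the chromosome 8 share was above that of the other peaks, at 10.5% against 6.48% under 100 bp, 15.5% against 6.69% from 100 to under 200 bp and 13.2% against 7.35% for 200 bp or more. The chromosome 8 share was not above that of the other peaks at every distance from the nearest Omni-ATAC 50000-cell peak. It was 8.33% of the 12 peaks within 10 bp, 15.7% of the next 70 up to 100 bp, 6.86% of the next 102 up to 500 bp and 9.68% of the next 31 up to 1000 bp. From there to 10000 bp it was 11.9% of 243 peaks, and over 10000 bp 20.0% of 125.

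Chromosome 14 held 23 Omni-absent peaks, each a locus of its own (3.95%, Wilson interval 2.64% to 5.85%), against 3.05% of the other peaks, which lies inside the interval. Of the other chromosomes, chromosome 11 held 47 (8.06% against 7.36%), chromosome 15 38 (6.52% against 5.23%), and chromosome 7 had 23 (3.95% against 6.84%), the widest shortfall in points. The unplaced and random sequences carried 10, of which 9 were on chrUn_JH584304, where 29.0% of the list's peaks were Omni-absent.

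**Figure D1:**
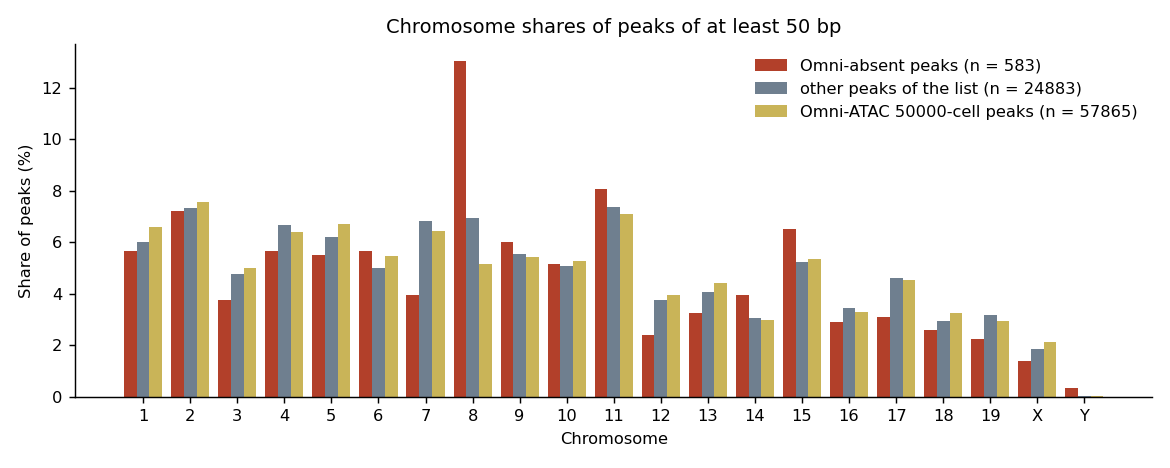
Share of peaks of at least 50 bp on each chromosome (y axis, percent) for the 583 Omni-absent peaks, the 24883 other peaks of the same list and the 57865 Omni-ATAC 50000-cell peaks. The Omni-absent bar of chromosome 8, at 13.04%, is the highest of the plot, while that of chromosome 14, at 3.95%, lies close to its neighbours.

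To see whether the pattern returned, the same 2 conditions were applied to the other 4 low-input lists. They gave 71 peaks from 5000 cells in experiment 2, 55 from 10000 cells in experiment 1, 139 from 10000 cells in experiment 2 and 94 from 20000 cells in experiment 1. These are 1.04%, 0.792%, 1.06% and 0.843% of the peaks of at least 50 bp, against 2.29% in the list of 20000 cells in experiment 2, which the rule used. It is also the longest low-input list, with 49508 intervals against 18637 to 29870.

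On chromosome 8 the Omni-absent share was 1.82% and 5.32% in the 2 lists of experiment 1, and 5.63%, 7.91% and 13.04% in those of experiment 2 with 5000, 10000 and 20000 cells. The ranges did not overlap, but the gap between them was small beside the spread within experiment 2. The means were 3.57% ± 2.48 (SD, n = 2) and 8.86% ± 3.79 (SD, n = 3), a difference of 5.29 points (p = 0.20 in a two-sided exact permutation test, and 0.25 after adjustment over 5 tests). This design cannot give a p under 0.10. Without the list that supplied the 583 regions the difference was 3.21 points. Against the other peaks of the same list, with 5000 cells the chromosome 8 share was 5.63% against 8.64%, with 10000 cells 1.82% against 5.59% in experiment 1 and 7.91% against 7.57% in experiment 2, and with 20000 cells in experiment 1 5.32% against 5.25%. So in the 4 other lists it was below or close to that of the other peaks. Among the other peaks, too, the chromosome 8 share was 6.93% to 8.64% in experiment 2 and 5.25% to 5.59% in experiment 1.

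For chromosome 14 the shares were 1.82% and 2.13% in experiment 1 and 9.86%, 5.04% and 3.95% in experiment 2, which again did not overlap. The means were 1.97% ± 0.219 (SD, n = 2) and 6.28% ± 3.15 (SD, n = 3), and the difference of 4.31 points had a two-sided p of 0.20 by the exact permutation test (adjusted p = 0.25). The counts behind these shares are small, with 7 peaks of chromosome 14 from 5000 cells and 1 and 2 in the lists of experiment 1. Leaving out the list from 5000 cells brought the difference to 2.52 points. Among the other peaks, too, the chromosome 14 shares did not overlap between experiments. They were 2.21% and 2.37% in experiment 1, and 3.23%, 3.07% and 3.05% in experiment 2 with 5000, 10000 and 20000 cells.

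**Figure D2:**
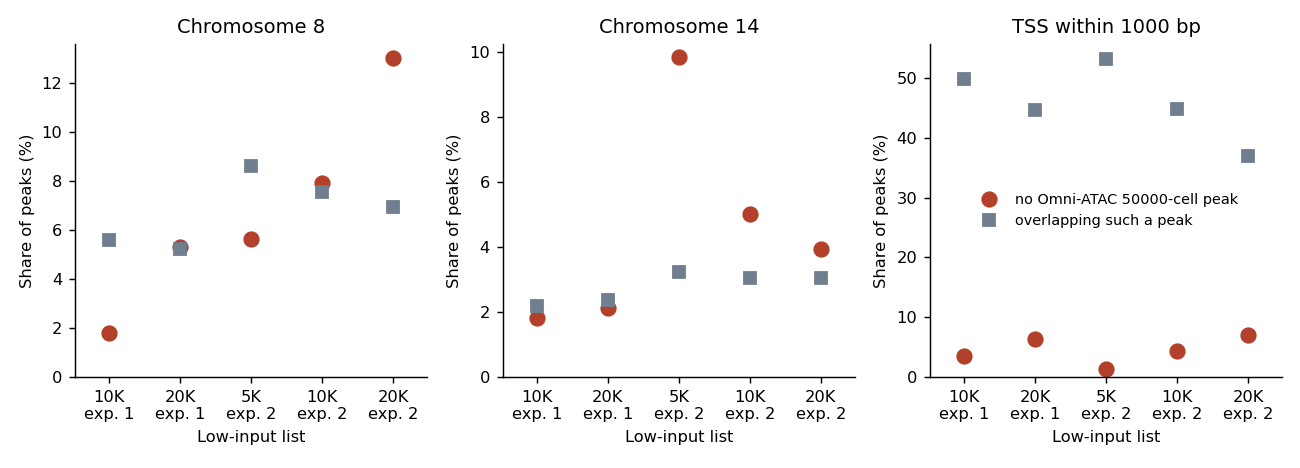
Share of peaks on chromosome 8, on chromosome 14 and within 1000 bp of a TSS (y axes, percent) in each low-input list, for peaks with no Omni-ATAC 50000-cell peak (circles) and for peaks overlapping one (squares). The circle for chromosome 8 stands well above its square in the list of 20000 cells of experiment 2, at 13.04% against 6.93%, while in the TSS panel all 5 circles lie below all 5 squares.

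Omni-absent peaks were far from transcription start sites. A TSS is here the first base of a gene as the deposited count table places it. By this measure 0 of the 583 held a TSS (a count of 0 allows a share of up to 0.515%), against 5534 of the other peaks (22.2%). The count of 0 holds for these starts only: by the RefSeq windows, the peaks at Csad and Gm46952 spanned a TSS. Within 1000 bp of a TSS lay 41 (7.03%, Wilson interval 5.23% to 9.40%), against 37.0% of the other peaks. With RefSeq starts it was 48 of the 583 (8.23%). The share depended on the rule: it was 17.8% of 1129 peaks when smaller overlaps than 50% of the shorter peak were ignored, 14.9% of 6864 with no minimum width, and 2.26% of 399 with no Omni-ATAC 50000-cell peak within 500 bp. The median distance was 22149 bp against 7586 bp, and 420 (72.0%) were over 10000 bp away, against 46.2%. Among the 583 the share was lower than in the other peaks in each width class: under 100 bp it was 6.25% against 23.7%, from 100 to under 200 bp 7.57% against 29.1%, and at 200 bp or more 7.89% against 49.6%.

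The few TSS-proximal peaks were mostly neighbours of Omni-ATAC peaks. Of the 102 Omni-absent peaks over 100 and up to 500 bp from an Omni-ATAC 50000-cell peak, 18.6% were TSS-proximal, as were 17.1% of the 70 at 11 to 100 bp. Of the 243 over 1000 and up to 10000 bp away the share was 2.06%, and of the 125 farther out it was 0, which allows up to 2.4%. On chromosome 8 the proximal peaks numbered 7 of 76 (9.21%) and on chromosome 14 0 of 23, which allows up to 13.04%.

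The TSS-proximal share was also low when the same rule was applied to each of the 4 other low-input lists. These are not independent repeats, since all were split by the same Omni-ATAC 50000-cell list, and 36 of 71, 33 of 55, 72 of 139 and 47 of 94 of their Omni-absent peaks overlapped the 583, in the order of 5000 cells, 10000 cells of experiments 1 and 2, and 20000 cells. The TSS-proximal share was 1.41% against 53.0% of the other peaks with 5000 cells, and 3.64% against 49.8% and 4.32% against 44.8% with 10000 cells in experiments 1 and 2. With 20000 cells in experiment 1 it was 6.38% against 44.6%. Over these lists the mean was 3.94% ± 2.05 against 48.1% ± 4.08 (SD, n = 4), a difference of -44.1 points with the same sign in 4 of 4 lists. The exact sign-flip permutation test gave a two-sided p of 0.12, the smallest that 4 lists allow (adjusted p = 0.25 over 5 tests), and treats the lists as independent.

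**Figure D3:**
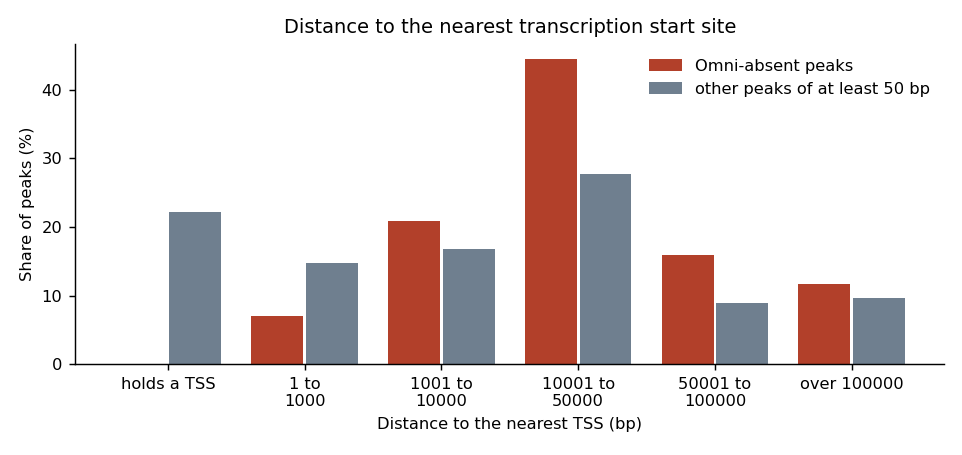
Distance from a peak to the nearest TSS in 6 classes (x axis, bp) and share of peaks in each (y axis, percent) for Omni-absent and other peaks. The class that holds a TSS has 22.2% of the other peaks and 0 of the Omni-absent ones, and 44.4% of the Omni-absent peaks lie over 10000 and up to 50000 bp away.

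Gene bodies held 292 of the Omni-absent peaks by their midpoint (50.1%), against 42.5% of the other peaks. Bodies of highly expressed genes, defined as the top 10% of the 24470 genes by CPM, the count scaled to the library's total, in the mRNA library of the same cells (at least 54.5 CPM), held 34 (5.83%, Wilson interval 4.20% to 8.04%), against 5.46%. The 2 shares are within counting error. With genes ranked by counts per kilobase of gene span, chosen after seeing the data, they were 3.26% and 3.66%, so the order turned. Over 1000 bp from any TSS they were 5.54% (30 of 542) and 4.45%. Over the 4 other lists the share was 4.74% ± 0.605 against 5.28% ± 0.210 (SD, n = 4), a difference of -0.53 points (two-sided p of 0.25 by the exact sign-flip permutation test, and the same after adjustment). Transcript lengths were not used here, so CPM does not correct for their length.

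Below the top class the picture was different. Expression deciles 2, 3 and 4, from 2.35 to 54.4 CPM, held 10.1%, 10.1% and 11.3% of the Omni-absent peaks, against 6.78%, 7.73% and 7.62% of the other peaks. In all, bodies of the top 40% of genes held 217 Omni-absent peaks (37.2%, Wilson interval 33.4% to 41.2%), against 27.4%. In decile 5 the order turned, with 4.29% of the Omni-absent against 6.10% of the other peaks. Deciles 6 and 7 held 4.12% and 2.06%, against 4.23% and 2.49%, and deciles 8 to 10 at most 1.54% and 1.52%. All genes of deciles 8 to 10 had 0 CPM, as had the lowest of decile 7, so expression does not order them. The grouping of these deciles was chosen after their values were seen, and no test was run on it. On chromosome 8, 41 of 76 Omni-absent peaks lay in gene bodies and 8 of 76 (10.5%) in those of highly expressed genes, against 7.59% of the chromosome's other peaks. On chromosome 14 it was 11 and 0 of 23.

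**Figure D4:**
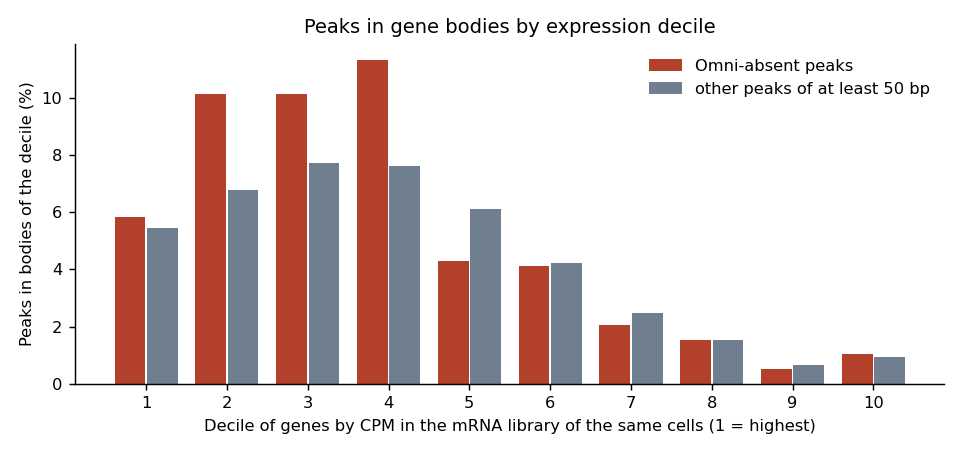
Share of peaks whose midpoint lies in the body of a gene of each expression decile (y axis, percent; x axis, decile by CPM in the mRNA library of 20000 cells in experiment 2, with 1 the highest). The bars of the top decile are alike, at 5.83% and 5.46%, and the Omni-absent bars exceed the others in deciles 2 to 4. Genes of deciles 8 to 10 are tied at 0 CPM.

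The 5 most expressed genes with an Omni-absent peak in the body were Cox4i1, Aprt, Rpl24, Prdx2 and Atox1, of which Cox4i1, Aprt and Prdx2 are on chromosome 8. Cox4i1 encodes a subunit of cytochrome c oxidase, the last complex of the respiratory chain. Its peak was chr8:120671920-120672019, 3695 bp from the TSS, and the gene had 2741 CPM in the same cells. Aprt encodes an enzyme of adenine salvage, and its peak chr8:122575434-122575550 was found in no other list (1581 CPM). The peak in Rpl24, a protein of the large ribosomal subunit, was chr16:55969310-55969398, and it too was in no other list (1570 CPM). Prdx2 encodes a peroxiredoxin that removes peroxides. Its peak chr8:84974350-84974450 overlapped peaks in 3 of the other 7 lists (828 CPM). The peak in Atox1, a copper chaperone, was chr11:55450493-55450580 (793 CPM) and overlapped a peak in 1 other list. These peaks lay 1293 to 3616 bp from the nearest Omni-ATAC 50000-cell peak.

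At most 2 Omni-absent peaks fell in a gene body, which happened in 11 bodies. The first 5 of them in the order of the table were Abca1, Asap2, Cacna1a, Erg and Eya3, all long genes of 85720 to 227425 bp. Abca1 exports cholesterol from cells, Cacna1a encodes a calcium channel subunit and Erg is an ETS transcription factor of blood and vessel cells. Erg had 0 counts in 4 of the 5 mRNA libraries and 1 count in the other, while Cacna1a had 34.5 to 57.7 CPM.

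Of the gene lists examined, 10 pluripotency genes and 10 lineage genes had 0 Omni-absent peaks at a TSS or in a body, while other peaks were at the TSS of 5 and 3 of them. Among 82 cytosolic ribosomal protein genes, Rpl27a had a peak within 1000 bp of the TSS and Rpl24 one in the body. Of 395 Zfp zinc finger genes, 1 had one at the TSS and 5 in the body. None was found at 1119 olfactory receptor genes (0) or 42 Hox genes (0). Over all 24470 genes, 48 (0.196%) had an Omni-absent peak within 1000 bp of the TSS and 286 (1.17%) had one in the body, so the shares for ribosomal protein genes (1.22% each) and Zfp genes (0.253% and 1.27%) rest on 1 to 5 genes.

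A minority of Omni-absent peaks was found again in the low-input library of 20000 cells from experiment 1. It overlapped 118 of the 583 (20.2%, Wilson interval 17.2% to 23.7%) and 68.0% of the other peaks. The share grew with width in both sets and was lower for Omni-absent peaks in each class: under 100 bp 16.4% of Omni-absent and 43.6% of other peaks were found again, from 100 to under 200 bp 19.9% and 60.1%, and at 200 bp or more 34.2% and 85.7%. Counting only peaks of at least 50 bp in experiment 1, 49 (8.40%) were found again.

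Among the other low-input lists the share overlapped was 16.3% with 5000 cells. With 10000 cells it was 14.2% in experiment 1 and 31.6% in experiment 2. The same lists overlapped 53.4%, 53.2% and 75.1% of the other peaks. The Omni-ATAC lists from 5000 and 10000 cells, which the rule did not use, overlapped 15 Omni-absent peaks each (2.57%). Of the other peaks they overlapped 27.4% and 68.6%. The 4 low-input lists averaged 20.6% ± 7.73 (SD, n = 4), 18.0 points above the 2 Omni-ATAC lists. The regions were selected on presence in a low-input list and absence from an Omni-ATAC list, which favours this direction, so the difference is a description. Its exact permutation test, one of the 5 adjusted together, is not read as support. The 4 low-input lists hold 18637, 18877, 29870 and 27016 intervals in the order of 5000 cells, 10000 cells of experiments 1 and 2, and 20000 cells, and the longer 2 of them overlapped more of the regions than the shorter 2. The Omni-ATAC lists from 5000 and 10000 cells hold 9097 and 31207 intervals. The part of list length in these shares was not tested.

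Over all 7 other lists, 330 Omni-absent peaks (56.6%) were in no other list. Another list of experiment 2 held 205 (35.2%, against 79.1% of the other peaks). A list of experiment 1 held 140 (24.0%, against 73.7% of the other peaks). In another list of experiment 2 but in none of experiment 1 were 111 (19.0%, against 12.8% of the other peaks). For 46 it was the reverse (7.89%, against 7.45% of the other peaks). Experiment 2 supplied the regions but has 2 other lists, as has experiment 1. The deposited unified list held 41 (7.03%), against 69.3% of the other peaks.

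By chromosome, the 76 peaks of chromosome 8 were found again in 5.26% (4 peaks) and 14.5% (11 peaks) of cases in the experiment 1 lists of 10000 and 20000 cells, and in 14.5% and 35.5% in the experiment 2 lists of 5000 and 10000 cells. Off chromosome 8 the shares were 15.6% and 21.1% in experiment 1 and 16.6% and 31.0% in experiment 2. The other peaks of chromosome 8 were found in 45.1% and 58.9% of cases in the same experiment 1 lists, where other peaks off chromosome 8 reached 53.8% and 68.7%, and in 58.1% and 78.9% in the experiment 2 lists, where those reached 53.1% and 74.8%. No test was run on these shares. Both Omni-ATAC lists that the rule did not use overlapped 0 of the 76, which allows up to 3.95%. Of the 118 peaks found again in 20000 cells of experiment 1, 11 (9.32%) were on chromosome 8, 6 (5.08%) on chromosome 14, 4 (3.39%) within 1000 bp of a TSS and 5 (4.24%) in bodies of highly expressed genes. On chromosome 14 6 of 23 were found again there.

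**Figure D5:**
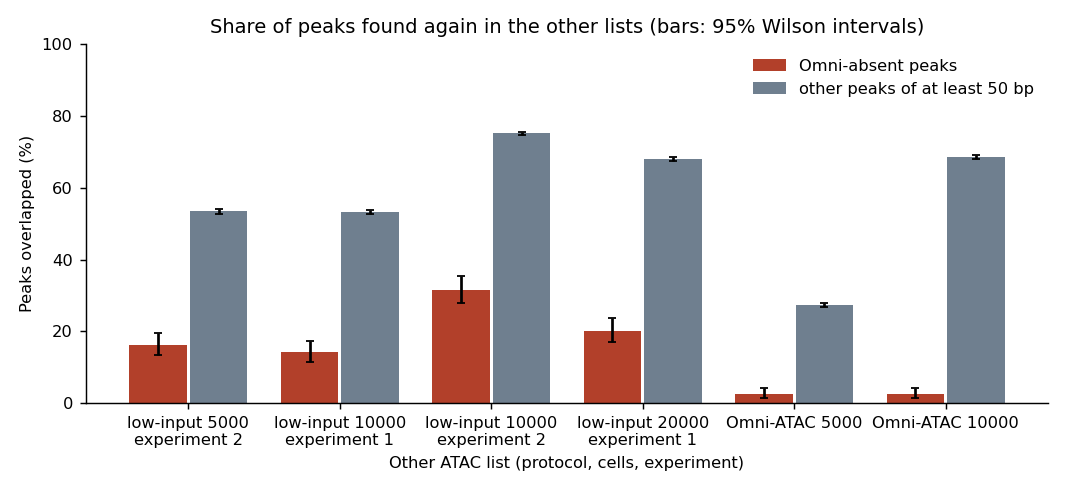
Share of peaks overlapped by at least 1 bp in each other ATAC list (y axis, percent) for Omni-absent and other peaks of at least 50 bp, with 95% Wilson intervals as error bars. Omni-absent peaks reach 31.6% in the 10000-cell list of experiment 2 and 2.57% in both Omni-ATAC lists, where other peaks reach 68.6% with 10000 cells.

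The widest Omni-absent peak, chr2:55347038-55347665, was 628 bp wide and 88152 bp from an Omni-ATAC 50000-cell peak, in no gene body. It overlapped peaks in 2 of the other 7 lists, by 9 and 12 bp. The next, chr6:68813251-68813779 (529 bp), shared 76 bp with a peak of 10000 cells in experiment 2 and nothing with the rest. The widest on chromosome 8 was chr8:19090655-19091115 (461 bp), near the defensin gene Defb12, and shared 9 bp with a peak of that list too. The others on that chromosome were chr8:112651370-112651796 in the body of Cntnap4 (0.196 CPM) and chr8:74987672-74987982, the only one of the 10 widest that no other list overlapped. The widest on chromosome 14 was chr14:117837751-117838025 (275 bp) in the body of Gpc6, a glypican gene (0.783 CPM), and it overlapped peaks in 3 other lists, by 189 bp with 10000 cells of experiment 2.

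A small group was found in all low-input lists. Peaks of every other low-input list overlapped 44 Omni-absent peaks (7.55%), against 37.1% of the other peaks. Of these 44, 33 (5.66% of the Omni-absent peaks) overlapped none in any Omni-ATAC list. The widest of the 33, chr13:65484935-65485355 (421 bp), shared 302 bp and 214 bp with peaks of 10000 and 20000 cells in experiment 1, and 9 bp and 129 bp with those of 5000 and 10000 cells in experiment 2. Another of the 33 was chr5:36630550-36630754, a peak of 205 bp in the body of D5Ertd579e and 37185 bp from an Omni-ATAC 50000-cell peak. All 205 bp of it lay inside peaks in each of the 4 other low-input lists. On chromosome 8, chr8:83756831-83756985 (155 bp), near Adgre5, shared 152 to 154 bp with all 4, but lay only 50 bp from an Omni-ATAC 50000-cell peak. The peak in Thsd7a, chr6:12671739-12671987, shared 51 to 222 bp, and the one in Plcd3, a phospholipase C gene, chr11:103095341-103095515, shared 9 to 119 bp.

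A part of the repeated peaks came from 2 places. The 583 peaks formed 556 loci, of which 545 held a single peak and 2 held 3 or more. The first, chr9:3003386-3038219, lies at the start of the assembled chromosome and held 12 Omni-absent peaks, all 12 found in 20000 cells of experiment 1 and in every low-input list. The low-input lists had 47 to 50 peaks within it and the Omni-ATAC lists 38, 20 and 38 with 5000, 10000 and 50000 cells. In bases covered the low-input lists had 3851 to 5394 and the Omni-ATAC lists 2584, 623 and 2053. The second, chrUn_JH584304:78028-109312 on an unplaced sequence, held 8 Omni-absent peaks, of which 7 were found again in 20000 cells of experiment 1. There the low-input lists had 33 to 42 peaks and the Omni-ATAC lists 22, 11 and 22. So Omni-ATAC also had peaks in both loci, beside the Omni-absent ones. These loci supplied 12 of the 33 peaks shared by every low-input list alone. Outside them, 99 of 563 Omni-absent peaks (17.6%) were found again in 20000 cells of experiment 1.

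Because mRNA came from the same cells, expression of the genes next to Omni-absent peaks was compared between experiments, with the 10000-cell and 20000-cell libraries as 2 replicates per experiment. Total counts ran from 13727122 to 20426252 per library over the 5 mRNA libraries, while the read depth behind the ATAC lists is unknown. In bulk samples fewer cells of a type and less RNA per cell cannot be told apart. Libraries of an experiment share a day, and the labels do not say whether they came from separate cultures, so p-values measure only the spread between these libraries. By edgeR's quasi-likelihood test with Benjamini-Hochberg adjustment over 12523 genes, 12.5% of genes had an adjusted p under 0.05 between experiments, 5.75% higher and 6.76% lower in experiment 2. On chromosome 8, 30.3% were higher in experiment 2. In number 1567 genes passed, and 803, 869 or 1018 without 10000 cells of experiment 2, 20000 cells of experiment 2 or 10000 cells of experiment 1.

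Stem cell markers were high in every library: Pou5f1, Sox2, Nanog, Klf4, Zfp42, Esrrb and Dppa5a summed to 2555 to 2803 CPM. Of these 7, Klf4 and the chromosome 8 gene Zfp42 passed the test by edgeR, both higher in experiment 2 (log2 fold change 0.42 ± 0.13 SE, adjusted p = 0.0381, and 0.38 ± 0.11 SE, adjusted p = 0.0282). The 5 fibroblast markers summed to 32.1 and 35.3 CPM in experiment 1 and to 9.01 to 10.4 CPM in experiment 2, and Col3a1 was at 0 in all libraries. Most of the sum was Thy1, with 29.2 and 33.9 CPM in experiment 1 and 9.78, 6.77 and 7.05 CPM in experiment 2 with 5000, 10000 and 20000 cells. Pdgfrb had 0.728 and 0.535 CPM in experiment 1 and 0.477, 1.61 and 1.47 CPM in experiment 2, so its fitted difference had the other sign (log2 fold change 1.28 ± 0.81 SE, edgeR adjusted p = 0.348). Of the 3 of these 5 that were tested, only Thy1 passed by edgeR (log2 fold change -2.19 ± 0.21 SE, adjusted p = 6.75e-08), and its part in the other differences between experiments was not tested.

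Among genes with an Omni-absent peak at the TSS, 3 of 34 tested passed (8.82%, against the 12.5% of all genes), 1 higher and 2 lower in experiment 2. The count was 1 without 10000 cells of experiment 2 and 6 without 20000 cells of experiment 1. Cdc16, a subunit of the anaphase-promoting complex on chromosome 8, had 73.7 and 72.2 CPM in experiment 1 with 10000 and 20000 cells, and 94.0, 114 and 108 CPM in experiment 2 with 5000, 10000 and 20000 cells. The groups did not overlap, and the log2 fold change was 0.60 ± 0.13 (SE, edgeR adjusted p = 0.00267). Its peak, chr8:13758541-13758605, overlapped peaks of both other experiment 2 lists and of neither experiment 1 list. Plk3, a polo-like kinase, had 12.3 and 12.6 CPM in experiment 1 and 8.65, 4.38 and 7.34 CPM in experiment 2 (log2 fold change -1.08 ± 0.28, edgeR adjusted p = 0.0119, and 0.201 without 10000 cells of experiment 2). Its peak, chr4:117134368-117134488, overlapped peaks in both experiments. Fxyd4, a regulator of the sodium pump, had 10.6 and 9.23 CPM in experiment 1 and 6.56, 5.22 and 4.75 CPM in experiment 2 (log2 fold change -0.99 ± 0.29, edgeR adjusted p = 0.0257). Its peak, chr6:117937338-117937409, was in no other list and ended 3 bp before the TSS, while its transcript was lower in the cells that gave the peak. The Fxyd4 call was lost without 10000 cells of experiment 1 (adjusted p = 0.0764) or either of the experiment 2 libraries (0.11 without 10000 and 0.163 without 20000 cells). DESeq2 gave Plk3 an adjusted p of 0.0593 and Fxyd4 one of 0.11. With the 5000-cell library of experiment 2 added, edgeR gave Plk3 an adjusted p of 0.0585 and Fxyd4 one of 0.0701. Cdc16 kept its call there (edgeR adjusted p = 0.00423).

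Of the 238 tested genes with an Omni-absent peak in the body, 31 passed the same test (13.03%), 20 higher and 11 lower in experiment 2, near the 12.5% over all genes. The count was 13 without 10000 cells of experiment 2, 18 without 20000 cells of experiment 2, and 20 by DESeq2. Over all genes DESeq2 called 1085, against 1567 by edgeR. Of the 20 genes that edgeR called higher, 12 were on chromosome 8. Of 33 tested genes there, 12 were higher (36.4%, against 30.3% of all tested genes of the chromosome) and 0 lower. Their median log2 difference was 0.49, and that of all tested genes of chromosome 8 was 0.46. Off chromosome 8, 19 of 205 passed (9.27%, against 11.4%), 8 higher and 11 lower. For body peaks that no experiment 1 list overlapped, the counts were 27 of 193 (13.99%), and on chromosome 8 9 of 27 higher (33.3%).

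Among the 12 on chromosome 8, Prdx2 had 481 and 512 CPM in experiment 1 and 775, 747 and 828 CPM in experiment 2 (log2 fold change 0.67 ± 0.11, edgeR adjusted p = 1.86e-04). Cox4i1 had 2082 and 2015 CPM in experiment 1 and 2909, 2846 and 2741 CPM in experiment 2 (0.45 ± 0.10, adjusted p = 0.00409). In both genes every library of experiment 2 was above every library of experiment 1. Chosen after their values were seen, Nfix, a nuclear factor I gene, had the largest fitted difference of the 12 (log2 fold change 1.39 ± 0.34, edgeR adjusted p = 0.00684, and 0.0775 and 0.0511 without 10000 and 20000 cells of experiment 2), followed by Itgb1, the integrin beta 1 gene (0.92 ± 0.16, adjusted p = 3.42e-04), and Nup93, a nuclear pore gene (0.76 ± 0.13, edgeR adjusted p = 3.43e-04). Aprt, on the same chromosome, had 1339 and 1281 CPM in experiment 1 and 1421, 1323 and 1581 CPM in experiment 2, which overlap (adjusted p = 0.432). Off chromosome 8, Atox1 was lower in experiment 2, with 1504 and 1646 CPM against 904, 820 and 793 CPM (log2 fold change -0.96 ± 0.11, edgeR adjusted p = 8.43e-07), although its peak came from an experiment 2 list. Rpl24 had 1772 and 1727 CPM in experiment 1 and 1697, 1718 and 1570 CPM in experiment 2, which do not overlap but differ little (log2 fold change -0.09 ± 0.10, edgeR adjusted p = 0.663).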

How the data were processed

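ATAC peaks were deposited by the authors as interval lists, 1 per library and a unified list, with no height or p-value, and mRNA as whole-number counts per gene with coordinates in mm10. Per the submitters' processing notes, cutadapt, Bowtie2 2.1.0, SAMtools 1.3.1, Picard, bedtools 2.24.0, MACS2 2.1.1, STAR 2.5 and featureCounts of Subread 1.5.0-p1 were used. Peak thresholds, strand settings and the handling of multiply mapping reads are not given in the sources used here, so overlapping genes, genes with near-identical copies and peaks in repeats are uncertain. The shortest intervals are 9 bp.

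Overlap means at least 1 shared bp, computed with numpy 2.4.6, and with bedtools 2.31.1 for overlap fractions. A peak belonged to a gene body by its midpoint. Counts were scaled here to CPM. Differential expression used edgeR 4.0.16 in R 4.3.3 (TMM, filterByExpr, glmQLFit, glmQLFTest, no block) on 4 libraries. On simulated counts for this comparison, 63 of 100 2-fold and 100 of 100 4-fold changes were called (12265 genes). The mRNA libraries were checked for duplicates: any pair differed by a chi-square of at least 10.1 per gene. Alternatives were DESeq2 1.42.0, other widths, distances, overlaps and expression classes, and leaving out each library.

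The regions named are the 10 widest peaks, the 10 widest found in all low-input lists and no Omni-ATAC list, and the 3 widest on chromosomes 8 and 14, described by examples. The genes named are those next to such regions, the 5 most expressed and the first 5 with most peaks in the body, and those with a peak at the TSS that passed the test. The members, lists and rules were chosen with earlier results of these data known. A list of histone genes held no symbol of the table. No genome was used, so base composition, repeats, exons and introns were not analysed here beyond the RefSeq promoter windows, of which 15665 of 32851 start at a TSS of the count table.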

Additional observations from a re-analysis of the deposited data

Results flagged for a closer look

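The share of peaks with no Omni-ATAC 50000-cell peak was 2.29% in the low-input list of 20000 cells from experiment 2, and 0.792% to 1.06% in the other 4 low-input lists, so this list lay far from the rest. The rule that chose the regions used this value in this list, so it is a description with no test and supports nothing. The limit used to mark such a sample is one that chance passes in about 1 in 20 groups.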

How the results depend on the processing

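With no minimum width the rule gave 6864 peaks, with 9.46% on chromosome 8, 14.9% TSS-proximal and 5.97% found again in 20000 cells of experiment 1. Minimum widths of 100 and 200 bp gave 327 and 76 peaks, with 2.45% and 2.63% on chromosome 14, and at 200 bp 34.2% were found again. Without an Omni-ATAC 50000-cell peak within 500 bp, 2.26% were TSS-proximal. When an overlap counted only from 50% of the shorter peak up, there were 1129 peaks, with 10.2% on chromosome 8, 17.8% TSS-proximal and 26.9% found again. TSS distances of 500 and 2500 bp gave 4.80% and 11.7%. Taking the top 5% and 20% of genes gave shares in gene bodies of 2.40% and 15.9%, and counts per kilobase of gene span, chosen after seeing the data, 3.26% (3.66% of the other peaks). Allowing 500 bp to a peak of experiment 1 gave 29.8%, and only its peaks of at least 50 bp 8.40%. Leaving out the 2 loci with the most peaks, chosen after seeing the data, was run on the number of peaks and on the shares on chromosome 8, on chromosome 14, at a TSS, in bodies of highly expressed genes and found again in 20000 cells of experiment 1. Each of these 5 shares stayed inside its Wilson interval.

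Without 1 list in turn, the difference between experiments ran from 3.21 to 7.04 points for chromosome 8 and from 2.52 to 5.47 points for chromosome 14. The TSS difference ran from -46.1 to -41.6 points, the gene body difference from -0.846 to -0.318 points and the repeat difference from 14.4 to 20.1 points. In these designs p cannot pass 0.05, so this says nothing on stability.

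Of all genes, 803 to 1817 passed with 1 mRNA library left out, against 1567: 803 without 10000 cells of experiment 2, 869 without 20000 cells of experiment 2 and 1018 without 10000 cells of experiment 1. The lone library is then assumed to vary like the others. Genes with a peak in the body ran from 13 (without 10000 cells of experiment 2) to 44, with 18 without 20000 cells of experiment 2, and genes with a peak at the TSS from 1 (without 10000 cells of experiment 2) to 6 (without 20000 cells of experiment 1). DESeq2 called 20 body genes and 1085 genes in all. Adding the 5000-cell library left 1 TSS gene and 1463 genes in all. With cell number as a replicate block 1765 genes passed, of which 1536 were among the 1567, and 39 body genes and 4 TSS genes. The differences between cell numbers correlated with r = -0.009 between experiments over 11512 genes, so the numbers share only a label. Counts per kilobase of transcript were not run, since transcript lengths were not used here. Without read depth, absence from a list is not absence of open chromatin.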
